A study of Saccharomyces cerevisiae with 18 samples.

Results

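The genes described here are 10 nuclear genes of budding yeast (Saccharomyces cerevisiae) that encode chaperones and proteases of the mitochondrial matrix: SSC1, ECM10, SSQ1, MDJ1, MGE1, HSP60, HSP10, HSP78, PIM1 and MCX1. They were taken by name, and all 10 were found among the 7130 genes of the count table and passed the filter on low counts, which left 5719 genes. Messenger RNA was sequenced from log-phase cells grown at 25 °C in YPD, a rich glucose medium, in 12 libraries, 3 from each of 4 strains. The strains were wild type (WT, strain CAY1015), fes1Δ (CAY1221, genotype given as a deletion of FES1), fes1ΔS (CAY1290) and fes1ΔL (CAY1256), the last pair named for loss of the S or the L isoform of FES1. Each genotype is a single strain, and its 3 libraries came from separate isolations of RNA; the p-values therefore speak only of the spread among such isolations. The 6 heat-shocked samples of the study (37 °C for 30 min, WT and fes1Δ) were not analysed here, because the columns of their tables carry names that match no sample.

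Proteins made in the cytosol enter the matrix unfolded, pulled through the inner membrane by the Hsp70 Ssc1. Ssc1 also acts in folding within the matrix, where the J-domain protein Mdj1 stimulates it, and the nucleotide exchange factor Mge1 resets it. Many imported proteins then fold inside the Hsp60 chamber, which is closed by the Hsp10 lid. Hsp78 returns aggregated proteins to solution, and the Lon-type protease Pim1 degrades those that cannot be folded. Fes1, the protein whose gene was altered, is a nucleotide exchange factor for Hsp70 outside mitochondria, and its short isoform is cytosolic. The heat shock factor Hsf1 is the transcription factor that drives many cytosolic chaperone genes, and some matrix chaperone genes are also known as its targets.

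Total counts ran from 7608550 to 10246711 per library. Levels are given as CPM, counts scaled to one common library total with TMM factors, as mean ± SD over 3 libraries. FES1 itself stood at 158 ± 7.49 CPM in WT and 146 ± 3.27 CPM in fes1ΔL, and at 1434 ± 80.2 CPM in fes1ΔS, 9.08-fold above WT. Counts per gene do not show which isoform was made, so loss of the S or the L isoform was not checked. The libraries labelled fes1Δ, at 159 ± 8.59 CPM, had as much FES1 RNA as WT, which goes against that label. URA3, a common selection marker, had from 1590 to 1868 counts in the libraries labelled fes1Δ and at most 3 in any other library. Any effect of that marker cannot be told apart from the fes1Δ label, and every direction given for that group is that of the libraries so labelled. These are bulk RNA samples, in which fewer cells that express a gene and less RNA per cell cannot be told apart.

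In the libraries labelled fes1Δ and in fes1ΔS, the same 5 of the 10 genes rose against WT: SSC1, MDJ1, HSP60, HSP10 and HSP78. The increases ran from 1.44-fold (HSP10) to 5.13-fold (HSP78) in the libraries labelled fes1Δ and from 1.53-fold (HSP10) to 4.02-fold (HSP78) in fes1ΔS. ECM10, SSQ1, MGE1, PIM1 and MCX1 were not called in either strain, and none of the 10 was called in fes1ΔL. A call is an adjusted p under 0.05 in edgeR's quasi-likelihood test, adjusted by Benjamini-Hochberg over all 5719 genes. As background, 12.9% of all tested genes were called in the libraries labelled fes1Δ (5.72% higher and 7.15% lower), 6.66% in fes1ΔS (3.22% higher and 3.44% lower) and 0.0699% in fes1ΔL (0.035% in each direction). The median log2 fold change of the 10 genes was 0.37 in both comparisons, beside medians of 0.00045 and -0.0033 over all tested genes. The summed counts of the 10 genes took 0.391% to 0.434% of a WT library, 0.636% to 0.650% of a library labelled fes1Δ, 0.640% to 0.658% in fes1ΔS and 0.394% to 0.426% in fes1ΔL.

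**Figure D1:**
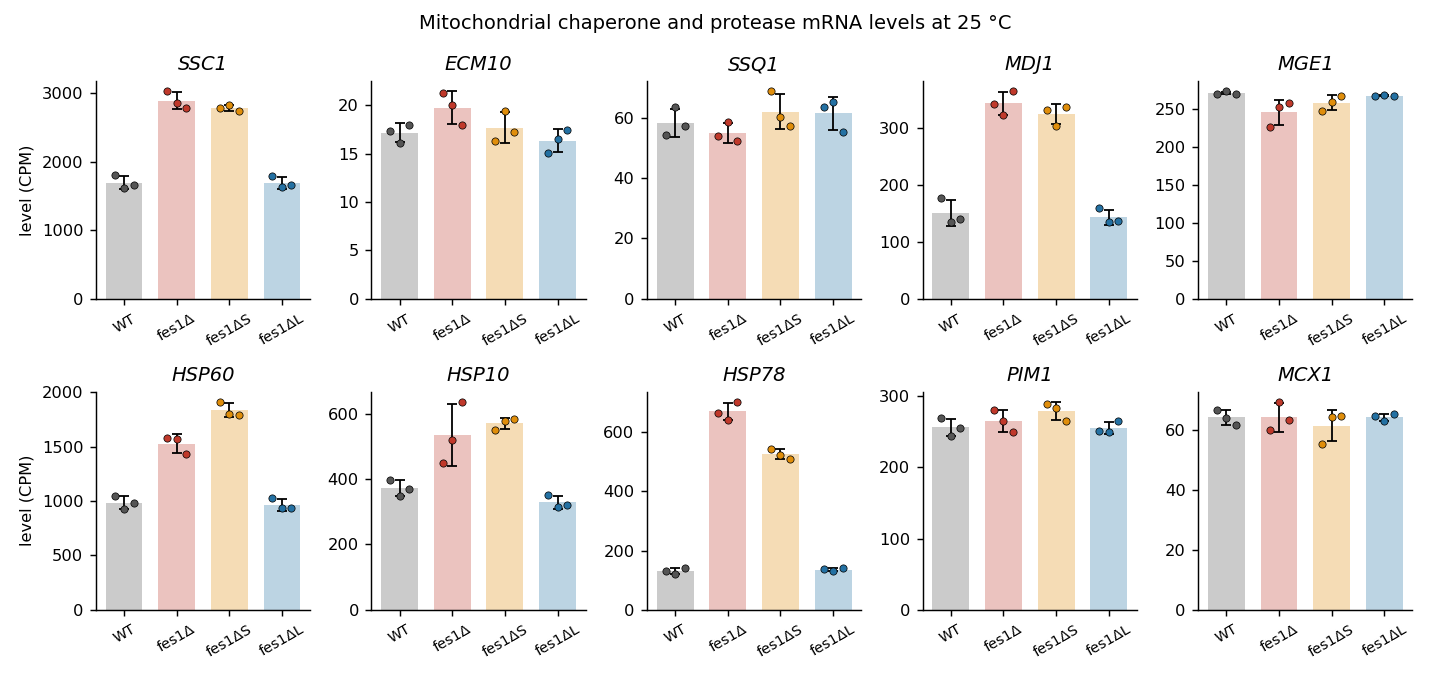
Level of each of the 10 genes in CPM (vertical axis, starting at 0, with its own scale per gene) in WT, fes1Δ, fes1ΔS and fes1ΔL. Points are the 3 libraries of a strain, bars their mean and whiskers the SD; SSC1, MDJ1, HSP60, HSP10 and HSP78 are higher in fes1Δ and fes1ΔS than in WT and fes1ΔL, and the other 5 lie close together in all 4 strains.

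SSC1, the mitochondrial Hsp70 of import and folding, measured 1799.8, 1622 and 1659.6 CPM in the WT libraries, and those labelled fes1Δ had 3023, 2853 and 2779.7 CPM. In fes1ΔS it measured 2784, 2825 and 2735 CPM, and in fes1ΔL 1792, 1628 and 1655 CPM. Every library of the first pair of mutants lay above every WT and fes1ΔL library, and WT and fes1ΔL covered nearly the same range. The log2 fold change against WT was 0.77 in the libraries labelled fes1Δ (SE 0.06, adjusted p = 9.67e-09) and 0.72 in fes1ΔS (SE 0.06, adjusted p = 3.40e-08).

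Its relatives ECM10 and SSQ1 were not called. ECM10, a close paralog of SSC1, measured 17.37, 16.11 and 18.02 CPM in WT, and the libraries labelled fes1Δ had 21.31, 20.004 and 17.999 CPM, of which the lowest overlaps WT. Its log2 fold change was 0.21 (95% interval -0.02 to 0.43, adjusted p = 0.235), and in fes1ΔS it was 0.04 (-0.19 to 0.27). ECM10 counts were 0.0101 ± 0.00063 of SSC1 counts in WT, 0.00685 ± 0.00032 in the libraries labelled fes1Δ and 0.00635 ± 0.00051 in fes1ΔS. Because SSC1 and ECM10 are related in sequence, some reads may have been assigned to either, and the low values of ECM10 are uncertain to that extent. SSQ1, the Hsp70 specialised for iron-sulfur cluster assembly, had 58.3 ± 4.70 CPM in WT. Its level was 62.0 ± 5.94 CPM in fes1ΔS and 54.9 ± 3.29 CPM in libraries labelled fes1Δ, with overlapping groups in both comparisons. Its 95% intervals against WT on the log2 scale were -0.26 to 0.09 (fes1Δ) and -0.08 to 0.27 (fes1ΔS).

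Of the partner proteins of Ssc1, the J-domain gene moved and the exchange factor gene did not pass the test. MDJ1 measured 177, 134 and 141 CPM in WT. The libraries labelled fes1Δ had 344, 324 and 365 CPM and those of fes1ΔS 333, 305 and 338 CPM. Both groups lay above all 3 WT libraries, of which replicate 1 was the highest. MDJ1 rose by 1.19 on the log2 scale in the libraries labelled fes1Δ (SE 0.09, adjusted p = 7.13e-08) and was 2.15-fold higher in fes1ΔS (adjusted p = 2.02e-07).

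MGE1, which encodes the exchange factor of Ssc1 and so has in the matrix the kind of activity that Fes1 has outside it, measured 269.7, 273 and 269.1 CPM in WT. The libraries labelled fes1Δ had 226, 252 and 257 CPM, all below WT, fes1ΔS had 247, 259 and 267 CPM, also all below WT, and so had fes1ΔL, with 267 CPM at most. Groups did not overlap in 25.1% of all tested genes for fes1Δ against WT, in 28.1% for fes1ΔS and in 11.2% for fes1ΔL. The differences were small, at -0.14 (95% interval -0.26 to -0.02, adjusted p = 0.118) and -0.07 (-0.19 to 0.05, adjusted p = 0.522) on the log2 scale by edgeR, and neither was called. Without fes1Δ replicate 3 the first of them was called lower (-0.18, adjusted p = 0.0431). In WT and in fes1ΔL, MGE1 had the smallest coefficient of variation of the 10 genes (0.691% and 0.247%), while in the libraries labelled fes1Δ and in fes1ΔS it was 6.85% and 3.84%, above those of SSC1 and HSP78.

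Within a library, MGE1 counts were a smaller part of SSC1 counts in the libraries labelled fes1Δ and in fes1ΔS than in WT. The ratio was 0.150, 0.168 and 0.162 in WT, 0.0747, 0.0884 and 0.0925 in the libraries labelled fes1Δ, 0.0888, 0.0915 and 0.0976 in fes1ΔS and 0.149, 0.164 and 0.161 in fes1ΔL. WT and fes1ΔL overlap, and both other strains lie well below, at 0.533 and 0.579 of the WT mean. MDJ1 counts moved the other way relative to SSC1, from 0.0889 ± 0.00849 in WT to 0.120 ± 0.0102 in the libraries labelled fes1Δ and 0.117 ± 0.00815 in fes1ΔS. Exact two-sided permutation tests of these ratios against WT gave p = 0.1 for both mutants, the smallest value that 3 against 3 libraries can reach, and p = 0.7 and 0.5 for MGE1 and MDJ1 in fes1ΔL. A ratio shows unequal change of the pair and depends on gene lengths, which cancel only between strains.

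**Figure D2:**
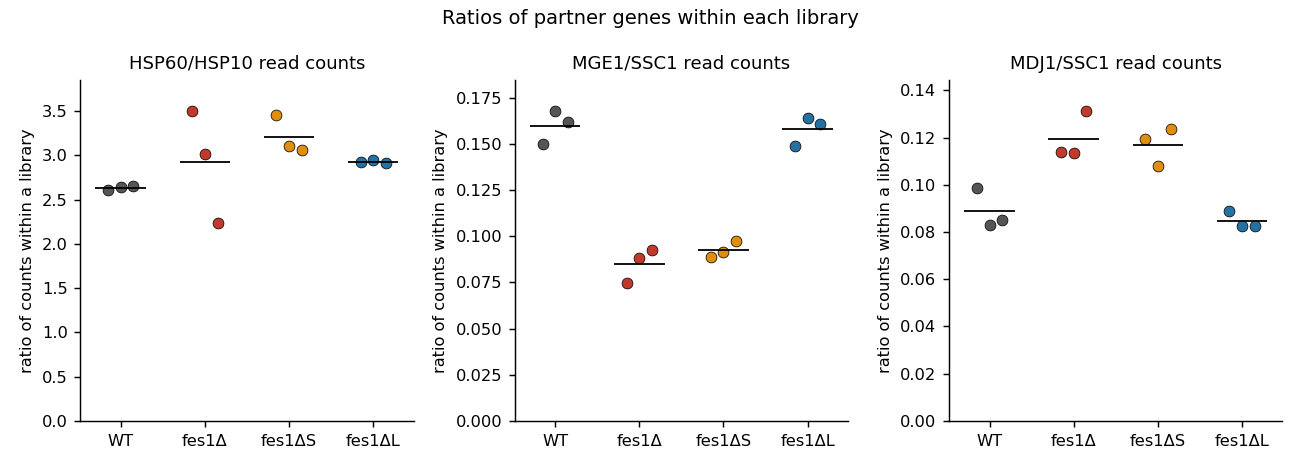
Ratio of read counts of 2 partner genes within each library (vertical axes, from 0, no unit) in the 4 strains, with 1 point per library and a line at the mean. MGE1 over SSC1 falls from a mean of 0.160 in WT to 0.0852 and 0.0927 in fes1Δ and fes1ΔS, MDJ1 over SSC1 is higher there, and HSP60 over HSP10 spreads from 2.24 to 3.51 among the 3 fes1Δ libraries.

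The chaperonin genes both rose. HSP60, the folding chamber, measured 1044, 924 and 979.7 CPM in WT. The libraries labelled fes1Δ had 1581, 1572 and 1429.6 CPM and those of fes1ΔS 1909.7, 1797 and 1795 CPM. The 3 groups did not overlap, with fes1ΔS highest. The log2 fold change against WT was 0.64 in the libraries labelled fes1Δ (SE 0.06, adjusted p = 5.25e-07) and 0.90 in fes1ΔS (SE 0.06, adjusted p = 3.14e-09).

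HSP10, the lid of the chamber, measured 399, 349.9 and 369.6 CPM in WT, 551.5, 579 and 586 CPM in fes1ΔS, and 451, 521 and 638 CPM in replicates 1, 2 and 3 of the libraries labelled fes1Δ. The last group has the widest spread of any of the 10 genes in any strain, a coefficient of variation of 17.6%, but still lies above WT throughout. HSP10 rose by 0.52 in the libraries labelled fes1Δ (SE 0.09, adjusted p = 0.00116) and by 0.62 in fes1ΔS (SE 0.09, adjusted p = 3.52e-04). Leaving out replicate 3 of the libraries labelled fes1Δ gave 0.38 (adjusted p = 0.00103).

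The ratio of HSP60 to HSP10 counts varied among the libraries, but the permutation tests could not call a difference between strains. In WT the HSP60 counts were 2.61, 2.64 and 2.65 times the HSP10 counts, and in fes1ΔL 2.92, 2.95 and 2.92 times. Both strains were thus tight and did not overlap (exact two-sided permutation p = 0.1, the smallest possible with 3 against 3), although neither gene differed by the test between them. In fes1ΔS the ratio was 3.46, 3.10 and 3.07, above all WT and fes1ΔL libraries (exact permutation p = 0.1 against WT). For levels of single genes, groups did not overlap in 11.2% of all tested genes for fes1ΔL against WT and in 28.1% for fes1ΔS. In the libraries labelled fes1Δ it was 3.51, 3.02 and 2.24, a range that takes in all the other strains (exact permutation p = 0.7 against WT). The library with the most HSP10 had the least HSP60.

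HSP78, the matrix disaggregase, had the largest fold change of the 10. It measured 132, 120.2 and 140.3 CPM in WT, while the libraries labelled fes1Δ had 667, 644 and 703 CPM. It measured 545, 524 and 509.7 CPM in fes1ΔS and 136, 129.8 and 139 CPM in fes1ΔL. The libraries labelled fes1Δ and those of fes1ΔS all lay above every WT and fes1ΔL library, and did not overlap each other. By edgeR the log2 fold change against WT was 2.36 in the libraries labelled fes1Δ (SE 0.07, adjusted p = 1.08e-15) and 2.01 in fes1ΔS (SE 0.07, adjusted p = 1.51e-14). Ranked by p among all 5719 tested genes, HSP78 had rank 5 in the libraries labelled fes1Δ and rank 6 in fes1ΔS.

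The protease gene PIM1 and the unfoldase gene MCX1 gave no call. PIM1, the Lon-type protease that degrades misfolded matrix proteins, measured 269, 244 and 256 CPM in WT. The libraries labelled fes1Δ had 281, 265 and 250.1 CPM and those of fes1ΔS 290.02, 283 and 266 CPM, and both groups overlapped WT. Its log2 fold changes were 0.05 (95% interval -0.08 to 0.18) and 0.13 (-0.0013 to 0.25, adjusted p = 0.246). MCX1, a ClpX-type unfoldase, had 64.1 ± 2.52 CPM in WT. It had 61.3 ± 5.22 CPM in fes1ΔS and 64.0 ± 4.74 CPM in libraries labelled fes1Δ, with 95% intervals against WT of -0.15 to 0.15 (fes1Δ) and -0.22 to 0.08 (fes1ΔS). For both genes the upper bound lies below the lower bound for HSP10 (0.32 and 0.42), the smallest of the called increases.

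**Figure D3:**
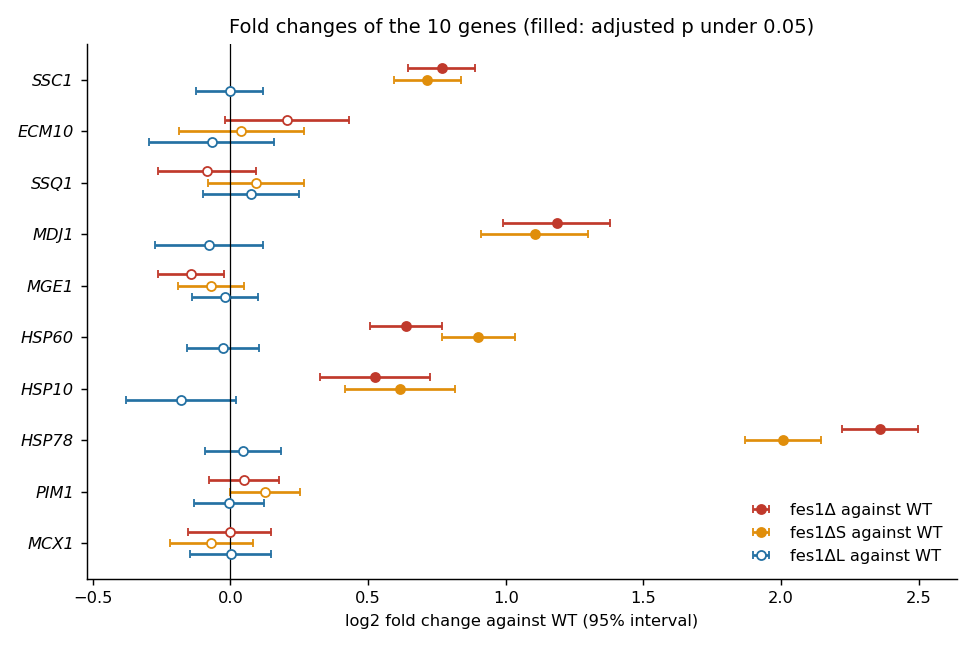
Log2 fold change against WT (horizontal axis) of each of the 10 genes in fes1Δ, fes1ΔS and fes1ΔL, with 95% intervals from the edgeR fit and filled points where the adjusted p is under 0.05. The 5 called genes lie between 0.52 and 2.36 in fes1Δ and fes1ΔS, and all fes1ΔL points are open and lie between -0.18 and 0.07.

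Levels can be set against each other between genes only per gene length, for which the authors' FPKM values (scaled by gene length and library total) served. They were usable for 5 of the 10 genes. In WT the order by FPKM was MDJ1 with 98.0 ± 15.1, PIM1 with 73.0 ± 3.41, HSP78 with 52.5 ± 4.34, MCX1 with 41.5 ± 1.25 and ECM10 with 7.84 ± 0.35, and no neighbours in that order overlapped in their libraries. In the libraries labelled fes1Δ the FPKM of HSP78, 255 ± 11.8, was above that of MDJ1, 214 ± 11.2, while PIM1 (70.9 ± 3.32), MCX1 (40.1 ± 3.17) and ECM10 (8.67 ± 0.39) kept their places below. In fes1ΔS MDJ1 (204 ± 12.1) and HSP78 (199 ± 7.62) overlapped.

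In fes1ΔL the intervals bound the size of any difference from WT. Of the 10 genes the largest estimated difference from WT in fes1ΔL was that of HSP10, at -0.18 (95% interval -0.38 to 0.02, edgeR adjusted p = 0.984). For SSC1, HSP60, MDJ1 and HSP78 the intervals were -0.12 to 0.12, -0.16 to 0.11, -0.27 to 0.12 and -0.09 to 0.18. The upper bounds lie below the lower bounds of the same genes in the other mutants. In all, 4 of 5719 genes were called in this comparison by edgeR, 5 by DESeq2, and 232 had an unadjusted p under 0.05.

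The fes1ΔL libraries gave a further comparison. SSC1, MDJ1, HSP60, HSP10 and HSP78 were also the 5 genes called higher in fes1ΔS against fes1ΔL (background 4.83% of genes called, 2.76% higher and 2.06% lower), which shares no library with the comparison of fes1Δ and WT. Both comparisons came from the single fit of 12 libraries and share its estimate of the spread, so their tests are not independent. In fes1ΔS against fes1ΔL the log2 fold change was 0.72 for SSC1, 1.18 for MDJ1, 0.93 for HSP60, 0.80 for HSP10 and 1.96 for HSP78. Beside these stood 0.77, 1.19, 0.64, 0.52 and 2.36 in the libraries labelled fes1Δ against WT. The same 5 were called in the libraries labelled fes1Δ against fes1ΔL (background 9.51%, with 4.41% higher and 5.11% lower), from 0.66 for HSP60 to 2.31 for HSP78. Of the 5 called genes, SSC1, HSP60, HSP10 and MDJ1 were highest in replicate 1 in both WT and fes1ΔL. Replicate 1 was highest for 2 of these 4 in the libraries labelled fes1Δ and for 1 of 4 in fes1ΔS. The 4 are the called genes without HSP78, so this tally is a description only. HSP78 was highest in replicate 3 in WT, fes1ΔL and the libraries labelled fes1Δ, and in replicate 1 in fes1ΔS.

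Set directly against each other, the libraries labelled fes1Δ and those of fes1ΔS differed in 2 of the 10 genes, in opposite directions, beside calls for 2.47% of tested genes (1.22% higher, 1.24% lower). The groups of this comparison did not overlap in 17% of genes. HSP78 was 1.28-fold higher in the libraries labelled fes1Δ (log2 0.35, SE 0.06, adjusted p = 0.00348). HSP60 was lower there (log2 -0.26, SE 0.06, adjusted p = 0.0264). The HSP60 call was lost on leaving out fes1Δ replicate 2 or 3 or any 1 of the 3 fes1ΔS libraries (adjusted p from 0.0526 to 0.147), while its log2 difference stayed between -0.29 and -0.22. SSC1, MDJ1 and HSP10 were not called, with intervals of -0.07 to 0.17, -0.11 to 0.27 and -0.29 to 0.11. Of 19 genes listed as Hsf1 target chaperones outside mitochondria, 3 were higher in the libraries labelled fes1Δ in the same comparison. These were SSA4 (log2 1.00), BTN2 (0.46) and HSP104 (0.46).

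Other lists of mitochondrial genes are read against the 12.9% (libraries labelled fes1Δ) and 6.66% (fes1ΔS) of all tested genes that were called. Of 11 other matrix and inner membrane chaperones and Hsp70 partners, 0 were called by edgeR in the libraries labelled fes1Δ and 0 in fes1ΔS, with medians of -0.10 and -0.01. Of 26 genes of protein import (the TOM, TIM and SAM complexes and the intermembrane space pathway), likewise 0 and 0 were called, with medians of -0.07 and -0.03. Of 18 other protease and peptidase genes and their partners, YTA12, a subunit of the inner membrane m-AAA protease, was higher (0.19, adjusted p = 0.0493) and the prohibitin gene PHB2 lower (-0.21, adjusted p = 0.0305) in the libraries labelled fes1Δ, and none was called in fes1ΔS. These 2 of 18 genes are 11.1% of the list, close to the share of all genes.

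In the iron-sulfur cluster list of 14 genes, the iron carrier gene MRS4 fell in both strains, by 0.48 (adjusted p = 5.56e-04) and by 0.30 (adjusted p = 0.0313) on the log2 scale, and the scaffold gene ISU2 fell by 0.40 in the libraries labelled fes1Δ (adjusted p = 0.00514). The other 12 and 13 genes were not called. Every call in this list was lower, at 14.3% and 7.14% of it, above the 7.15% and 3.44% of all genes called lower. These shares rest on only 2 genes and 1 gene. The median of the iron-sulfur list was -0.09 and -0.13, with 3 and 1 of 14 genes above 0. In fes1ΔL, where none of the list was called, it was -0.07, with 2 of 14 above 0. Of 66 genes picked by the names of mitochondrial ribosomal proteins, 4 fell in the libraries labelled fes1Δ, MRPS8 by 0.36 and MRPL6 by 0.32 among them, and 0 were called by edgeR in fes1ΔS. The 4 are 6.06% of the list, beside 7.15% of all genes called lower. The ribosomal list's median was -0.11 and -0.07, with 9 and 12 of 66 genes above 0. In fes1ΔL it was -0.08, with 5 of 66 genes above 0. At an adjusted p under 0.05, then, the other mitochondrial lists gave 1 call upward, that of YTA12.

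Genes listed as Hsf1 target chaperones outside mitochondria were called higher in 19 of 19 cases in both strains, with medians of 1.48 and 1.31. Of all tested genes, 5.72% (libraries labelled fes1Δ) and 3.22% (fes1ΔS) were called higher. The list also holds genes of other kinds, such as BTN2, and was chosen with earlier results of these data known. SSA4, a stress-inducible Hsp70, stood at 4.42 and 3.43, the protein-sorting factor gene BTN2 at 3.285 and 2.825, the disaggregase gene HSP104 at 2.46 and 2.00 and the Hsp90 gene HSP82 at 2.26 and 2.09. Beside them HSP78, at 2.36 and 2.01, lay above the list's median, and MDJ1, SSC1, HSP60 and HSP10 lay below it.

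**Figure D4:**
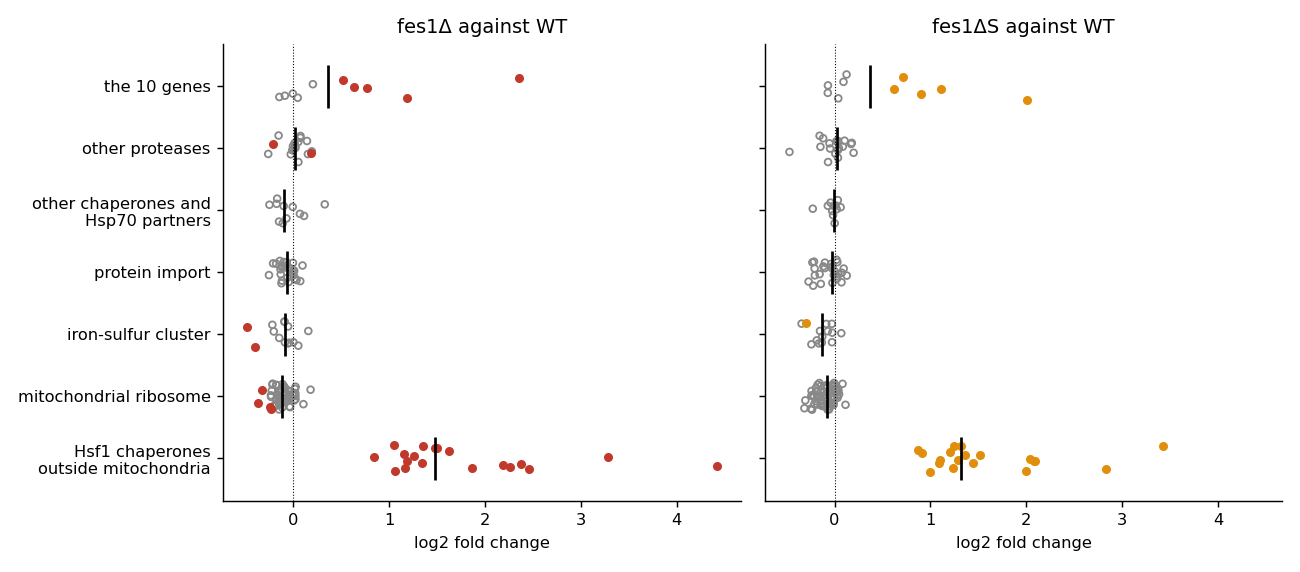
Log2 fold change against WT (horizontal axis) of single genes in fes1Δ (left) and fes1ΔS (right), grouped by list, with filled points for an adjusted p under 0.05 and a black line at each list's median. The 10 genes split into 5 filled points from 0.52 upward and 5 open points near 0. The medians of the other mitochondrial lists lie between -0.13 and 0.03. The genes listed as Hsf1 target chaperones outside mitochondria are all filled, with medians of 1.48 and 1.31.

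The genes with the pattern most like each called gene were sought among 5102 others with a mean of at least 10 CPM, by Pearson's r of log2 CPM over the 12 libraries, which share the same strain differences. SSC1 was closest to STI1, HSP82 and SSA1 (r = 0.997, 0.996 and 0.995), MDJ1 to SSA1, AHA1 and HSP82 (0.993, 0.992 and 0.991) and HSP78 to HSP104, BTN2 and SSA4 (0.999, 0.997 and 0.996). HSP60 was closest to SSE2, YRO2 and APA1 (0.982, 0.98 and 0.973), and HSP10 to SMF1, CPR1 and MTQ1 (0.978, 0.971 and 0.971). The nearest genes of SSC1, MDJ1 and HSP78 were thus all cytosolic chaperones and cochaperones, or BTN2, whereas those of HSP60 and HSP10 were mixed. SSE2 is an Hsp110 exchange factor, CPR1 a cyclophilin and SMF1 a metal transporter. Among the members, r with SSC1 was 0.989 for MDJ1, 0.988 for HSP78, 0.957 for HSP60 and 0.905 for HSP10. For the uncalled genes it was 0.62 (PIM1), 0.61 (ECM10), -0.19 (SSQ1), -0.22 (MCX1) and -0.72 (MGE1).

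The protein-coding genes on each side of the 10 were also examined, a set chosen after the values of the 10 had been seen. Of these 20 genes, 3 were higher and 2 lower in each of the comparisons of fes1Δ and fes1ΔS with WT, 14 were not called and 1 was not tested, beside the 12.9% and 6.66% of all tested genes called. TAH11, a DNA replication licensing gene that is read away from SSC1 on the other strand, had 93.2 ± 6.89 CPM in WT. It had 177 ± 4.09 CPM in fes1ΔS and 180.05 ± 9.89 CPM in libraries labelled fes1Δ. Its log2 fold changes of 0.95 (fes1Δ) and 0.93 (fes1ΔS) (edgeR adjusted p = 1.41e-09 and 2.33e-09) were larger than those of SSC1, and fes1ΔL, at 96.1 ± 4.24 CPM, overlapped WT. LCB5, which faces away from HSP60 in the same way, was higher by 0.25 and 0.28, and GSY2 on the far side of HSP60 by 0.34 and 0.29. YOR020W-A, which faces away from HSP10, went the other way, at -0.46 in the libraries labelled fes1Δ (adjusted p = 0.00440) and -0.31 in fes1ΔS (adjusted p = 0.0698). VPS55, on the other side of SSC1, was at -0.21 (adjusted p = 0.0511) and -0.32 (adjusted p = 0.00555), and ARC18, beside SSQ1, was lower in both, at -0.28 and -0.25. No neighbour of HSP78 or MDJ1 that could be tested was called. The sources used here do not state whether the counting used strand, so reads of genes that overlap on opposite strands cannot be told apart.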

How the data were processed

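Per the labels' protocols, the library kit selected poly(A) RNA and marked strand. The authors deposited raw whole-number counts per gene for 12 libraries and FPKM values for the same genes. The submitters' processing notes name build sacCer2 and, with no roles stated, TopHat2 2.0.4, HTSeq 0.6.1, Cufflinks 2.1.1, Picard 1.29, bcl2fastq 1.8.3 and CASAVA. Of the deposited FPKM lines, 3501 hold 24 values for 12 columns and were not used (5 of the 10 genes). The other 3629 lines hold 12 values, and over 2403 of these genes each of the 12 columns correlated best with its own count library. In addition, 12 columns match no sample by name and were not used, so the planned heat-shock comparison was not made.

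The test was edgeR's robust quasi-likelihood F test (version 4.0.16, under R 4.3.3) after TMM scaling and the default filter by group, in a single fit of 12 libraries with strain as the only term. SEs and 95% intervals were derived from the F statistic. Alternatives were RLE factors, no filter, DESeq2 1.42.0, a fit of the groups compared, a replicate block, each library left out, and limma 3.58.1 on log2(FPKM + 1). Simulated counts for fes1Δ against WT over 5685 genes gave calls for 99% of 100 genes changed 2-fold and 88% of 100 changed 1.5-fold, with 11 false calls. These counts were drawn from the model that the test assumes, with the spread estimated from these libraries. Equal numbers of genes were raised and lowered, none of them of very low count. The shares therefore do not measure the power of the real comparison. Replicates differed beyond sampling noise (chi-square over its degrees of freedom, 2.64 to 15.09, the highest between fes1Δ replicates 1 and 3). A count of 3 corresponds to 0.293 to 0.394 CPM before scaling, which covers counting error only. The 10 genes and the other lists were chosen with earlier results of these data known. Named list genes are those with the smallest adjusted p among called ones, at most 4 per list and comparison, and further genes named are those nearest in pattern to a called member. Names came from the deposited table, with the RefSeq gene table of R64 for neighbours and 1 ambiguous name; no coordinates or sequences are printed because its build differs.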

Additional observations from a re-analysis of the deposited data

How the results depend on the processing

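The counts of called genes among the 10 were the same under RLE factors, without the filter, with DESeq2, in a fit of the groups compared and with the replicate block, which gave 5 for fes1Δ against WT, 5 for fes1ΔS against WT, 0 for fes1ΔL against WT, 2 for fes1Δ against fes1ΔS, and 5 each for fes1ΔS and fes1Δ against fes1ΔL. The replicate block changed no call among the 10 genes. Same-numbered libraries of the groups compared correlated between -0.19 and 0.29 in their deviations, so the numbers were not taken as pairs. In fes1ΔL against WT, however, all same-numbered libraries correlated positively (0.29, 0.21 and 0.10), beside -0.26 to 0.10 for unlike numbers. The cause of that was not tested. Leaving out each library gave 5 to 6 for fes1Δ against WT (MGE1 joined), 5 to 5 for fes1ΔS against WT, and 1 to 2 for fes1Δ against fes1ΔS. Of all genes, it gave 486 (without WT replicate 1) to 1051 (without fes1Δ replicate 3) calls in place of 736 for fes1Δ against WT. For fes1ΔS against WT there were 251 (without fes1ΔS replicate 2) to 410 in place of 381. For fes1Δ against fes1ΔS there were 59 to 128 in place of 141 (59, 90 and 73 without fes1ΔS replicate 1, 2 and 3). For fes1Δ against fes1ΔL there were 354 to 576 in place of 544 (359 and 354 without fes1ΔL replicate 2 and 3). The range was 185 to 221 in place of 276 for fes1ΔS against fes1ΔL and 3 to 5 in place of 4 for fes1ΔL against WT. A fit of only the groups compared called 466 genes for fes1Δ against WT, 10 for fes1ΔL against WT and 464 for fes1ΔS against fes1ΔL. The cause was not tested. FPKM could be tested for 5 of the 10 genes, where MDJ1 and HSP78 were again the 2 called in fes1Δ and in fes1ΔS against WT. On FPKM, 76 genes were higher and 361 lower of 2819 in fes1Δ against WT, beside 146 and 193 by counts among genes with FPKM values, with 58 and 153 beside 92 and 93 for fes1ΔS. In fes1Δ against fes1ΔL FPKM gave 66 and 347 beside 119 and 141, and in fes1ΔS against fes1ΔL 57 and 129 beside 78 and 56. Of the 2819 genes, 2682 were in both tests, so the 2 sets of calls do not cover the same genes. Over those 2682 the median moved by -0.08 and -0.07 (log2) in fes1Δ and fes1ΔS against WT. Against fes1ΔL it moved by -0.10 and -0.08. At 134 to 181 counts per library, ECM10 has the least depth of the 10, and its 95% interval in fes1Δ against WT runs from -0.02 to 0.43 on the log2 scale.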
